A study of Homo sapiens with 47 samples.

Results

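NGFR, GFRA2, SOX9, SOX2, POU3F2 and AQP1, 6 genes that mark a neural crest-like, dedifferentiated state of melanoma cells, were followed through the chromatin lists of the series. They were chosen by name, with earlier results of these data known. Their members were all listed peaks, islands and intervals overlapping hg19 windows around the genes: chr17:47540000-47620000 for NGFR, chr8:21520000-21680000 for GFRA2, chr17:70070000-70170000 for SOX9, chr3:181400000-181460000 for SOX2, chr6:99250000-99320000 for POU3F2 and chr7:30930000-30990000 for AQP1. The windows held 66 of the 208946 regions in the union of the 20 ATAC-seq lists, 18 of the 93938 in the union of the 4 H3K27ac lists, 19 of the 84641 in the union of the 8 H3K9me3 lists, and 3 of the 1848 intervals in a table of the authors. No hg19 annotation was used, so regions are placed by coordinate and by window, and are called neither promoters nor enhancers.

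The libraries came from 451Lu and WM983B, established human melanoma cell lines, as vemurafenib-resistant cells and as parental cells. Vemurafenib inhibits BRAF, a kinase that is often mutated in melanoma. 451Lu cells also carried an shRNA against p150 and, in addition, over-expressed c-JUN and c-FOS (shp150_AP1), with a combined vector and NT control (vector_NT) as their control. Others carried only the over-expressed c-JUN and c-FOS, components of the transcription factor AP-1 (AP1, control vector), or only the shRNA (shp150, control NT). ATAC-seq, in which the transposase Tn5 cuts open chromatin, had 2 libraries in each of these 10 groups. H3K9me3, a mark of heterochromatin, had 2 libraries each of resistant, parental, shp150_AP1 and vector_NT 451Lu cells. H3K27ac, a mark of active promoters and enhancers, had 2 libraries each of resistant and parental cells of either line by the labels, and 1 peak list per group was used, that of replicate 1 in 451Lu and of replicate 2 in WM983B; the others were not analysed here. The labels say neither whether the resistant cells are a clone nor whether replicates are separate cultures, so the spread between replicates may be technical. The RNA libraries were not analysed here, and no value below is an expression level.

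In development the neural crest gives rise to melanocytes, peripheral neurons and glia, and melanoma cells can take on features of this origin. NGFR is a receptor for neurotrophins, and GFRA2 is the co-receptor through which neurturin signals with the kinase RET. SOX9, SOX2 and POU3F2 (also called BRN2) are transcription factors of neural crest, neural progenitor and neuronal cells. AQP1 is a water channel. NGFR, GFRA2 and AQP1 are used as markers of neural crest stem cell-like melanoma cells that persist under BRAF inhibition.

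Promoter sequences from RefSeq (GRCh38.p14) were matched for 3 of the 6 genes, SOX2, POU3F2 and AQP1. They are shown because AP-1 subunits were over-expressed in part of the series, and all 3 that matched are given. Each run is the 250 bases before the annotated start, 5′ to 3′ on the plus strand. Capitals mark, on either strand, the AP-1 motif TGANTCA, the MITF E-box CACATG, the SOX motif ACAAAG, the POU octamer ATGCAAAT and the CCAAT box CCAAT.
SOX2, chr3:181711675-181711924: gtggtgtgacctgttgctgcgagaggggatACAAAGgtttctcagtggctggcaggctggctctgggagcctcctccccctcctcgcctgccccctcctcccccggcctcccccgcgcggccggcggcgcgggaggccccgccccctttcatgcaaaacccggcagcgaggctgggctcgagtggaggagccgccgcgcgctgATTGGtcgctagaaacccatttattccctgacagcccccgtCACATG
POU3F2, chr6:98834324-98834573: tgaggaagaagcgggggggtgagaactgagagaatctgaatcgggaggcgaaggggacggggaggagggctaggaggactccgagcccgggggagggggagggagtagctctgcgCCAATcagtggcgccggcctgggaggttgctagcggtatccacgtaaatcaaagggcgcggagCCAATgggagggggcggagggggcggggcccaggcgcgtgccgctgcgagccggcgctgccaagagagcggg
AQP1, chr7:30911603-30911852: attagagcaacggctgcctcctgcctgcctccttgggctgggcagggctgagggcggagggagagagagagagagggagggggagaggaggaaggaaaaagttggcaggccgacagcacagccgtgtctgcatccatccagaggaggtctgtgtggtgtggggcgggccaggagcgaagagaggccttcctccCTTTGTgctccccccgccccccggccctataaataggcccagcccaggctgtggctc

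The SOX2 run holds 1 SOX motif, 1 CCAAT box and 1 E-box, the POU3F2 run holds 2 CCAAT boxes, and the AQP1 run holds 1 SOX motif. None of the 3 runs holds the AP-1 letters or the octamer. Of the 35116 RefSeq promoter windows of this length, 6.57% hold the AP-1 motif, 9.42% the E-box, 13.7% the SOX motif, 1.63% the octamer and 32.0% the CCAAT box. The GC content was 68.8% for SOX2, 69.2% for POU3F2 and 65.2% for AQP1, with 20, 22 and 8 CpG, against medians of 58% and 11 CpG over all these windows. Since the sequences are of another build, they were not set on the hg19 peaks.

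The ATAC-seq lists held 42898 to 94550 peaks in 451Lu and 129339 to 147988 in WM983B, with median peak widths of 364 to 479 bp and 170 to 190 bp. The smallest listed score was 2.0 to 2.04 in 451Lu and 1.30 to 1.32 in WM983B, and the sequencing depth behind the lists is unknown. The melanocyte genes SOX10, MITF, PMEL, MLANA and TYR had ATAC peaks in their windows in all 20 libraries. The MITF window, the longest of the marker windows, had 19 to 28 in 451Lu and 34 to 42 in WM983B. The windows of SOX10, PMEL, MLANA and TYR had 1 to 5 in 451Lu and 2 to 9 in WM983B. The windows of the immune, epithelial and endothelial genes PTPRC, EPCAM and PECAM1 had 1 to 3 peaks in 451Lu and 2 to 7 in WM983B. These ranges overlap those of the melanocyte genes other than MITF, and the counts are not set per length of window. EPCAM had no H3K27ac peak in any list, while PTPRC and PECAM1 had up to 2, each in 2 of the 4 lists. MITF, PMEL and MLANA had H3K27ac peaks in all 4 lists, and SOX10 and TYR in 3 of the 4. For both SOX10 and TYR the list without a peak was that of resistant 451Lu cells. In WM983B the ATAC-seq lists overlapped more by replicate number than by label: the shared share of bases was 0.578 and 0.609 between resistant and parental libraries of the same number, and 0.509 within resistant and 0.510 within parental cells. WM983B values are therefore given by library. A peak's score is the authors' own and describes a peak within its list. In bulk chromatin, a region open in more cells and a region more open per cell cannot be told apart.

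A union region was called in a library that covered at least 1 bp of it. It was gained where both libraries of the resistant or changed cells and neither control library called it, lost in the reverse case, and constant where all 4 did. With 2 libraries against 2, an exact two-sided test cannot give a p below 0.33, so counts are set beside the share of all regions with the same call and no test is given.

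Of the 66 ATAC regions, 5 were called in all 20 libraries, 7.58% of them, against 11.7% of all regions. These were chr17:47592546-47593343 at NGFR, chr7:30978104-30978703 at AQP1, and chr6:99256336-99256944, chr6:99281213-99283459 and chr6:99292817-99293976 at POU3F2. The NGFR region had a lowest score of 15 and a highest of 77.2, and the AQP1 region 4.48 and 22.2. Both lines called 28 of the 66 regions, 29 had a call in WM983B alone, and 9 in 451Lu alone. In a single library were 23, or 34.8%, against 25.5% of all regions. SOX9 had the most such regions, 8 of 15, and POU3F2 2 of 10.

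**Figure D1:**
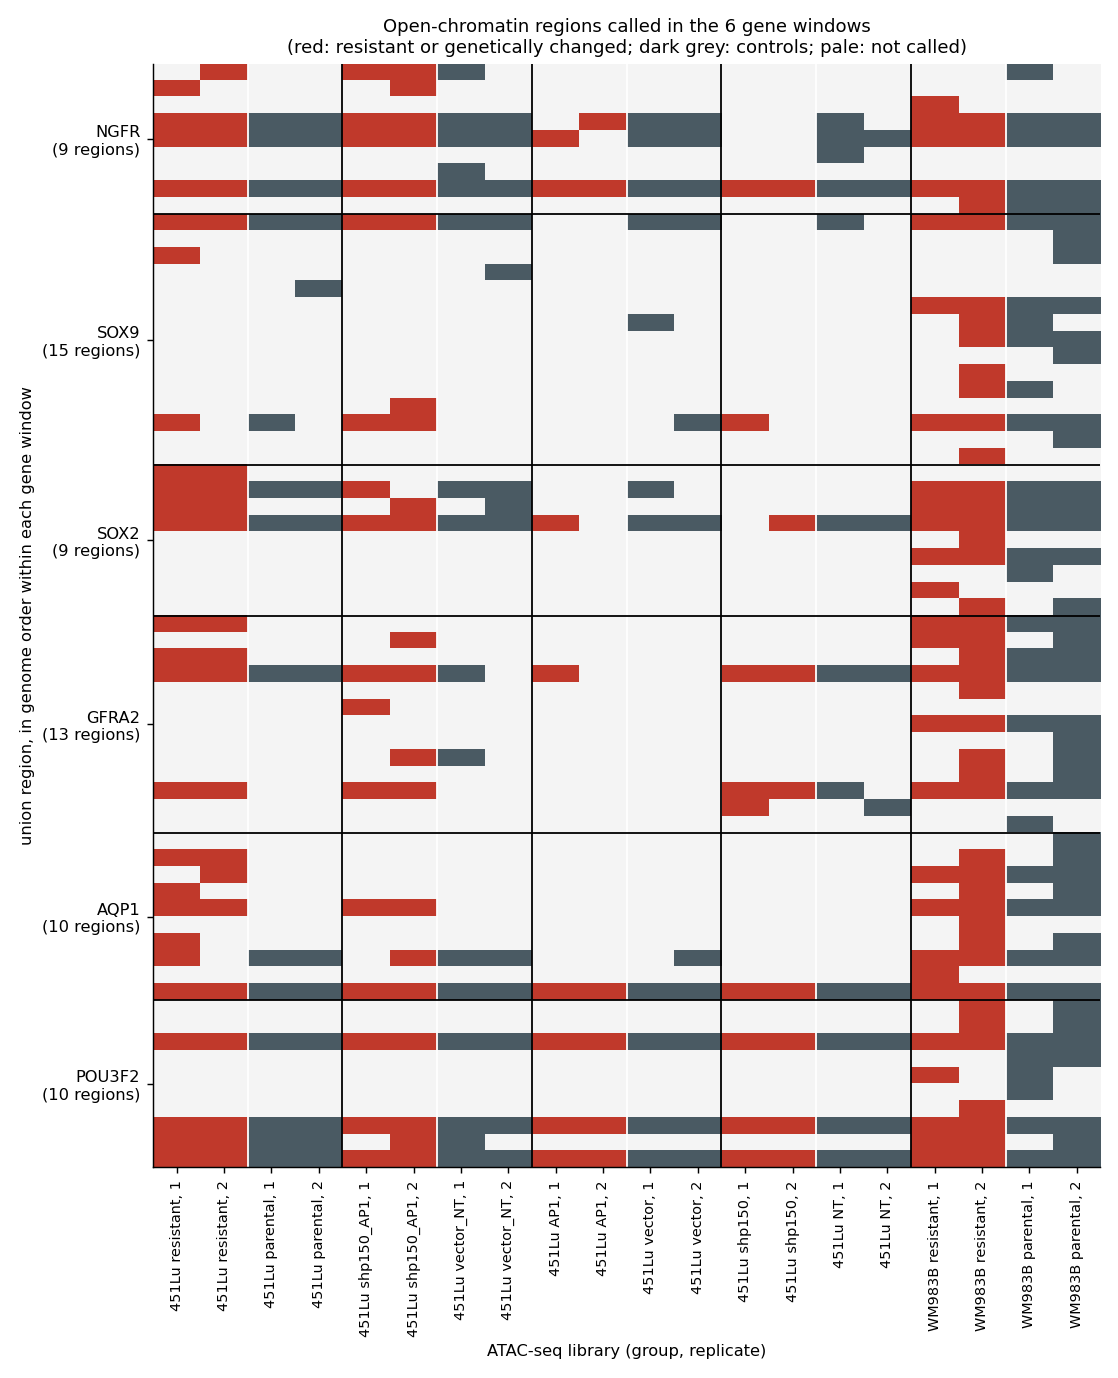
Calls of each of the 66 union ATAC-seq regions (rows, by gene window) in each of the 20 libraries (columns, with each resistant or changed group left of its control). Filled cells are called regions. The POU3F2 window has 3 rows filled throughout, and the SOX9, SOX2 and GFRA2 windows each have a row filled in all 4 WM983B columns at the right and nowhere else.

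In vemurafenib-resistant 451Lu cells, 7 of the 28 regions of these windows were gained and none was lost. The gains lay in 3 windows, with 3 at GFRA2, 2 at AQP1 and 2 at SOX2. That is 25% of the regions, against 9.79% gained among all 114302 regions, while 3.96% of all regions were lost. Another 12 regions were constant, or 42.9% against 54.3% of all regions, and the replicates disagreed on the remaining 9. NGFR, SOX9 and POU3F2 had no gain. The resistant lists were the longer, with 89922 and 94550 peaks against 82621 and 83203 in parental libraries. Without replicate 2 of the resistant cells the gains were 11. Without replicate 1 of the resistant cells, or without replicate 1 of the parental cells, 1 region was lost.

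At GFRA2, peaks covered 1454 and 1635 bases of the window in resistant 451Lu libraries, against 266 and 346 in parental ones. Both resistant libraries were above both parental ones. The gained region chr8:21614364-21614798 had scores of 13.9 and 16.8 in resistant cells and was not listed in parental cells. It outscored 52.1% and 59.1% of the peaks in its own lists. The gains at chr8:21524644-21525072 (6.62 and 9.69) and chr8:21535633-21536016 (8.97 and 9.69) stood lower in the same lists, above 20% to 39% of their peaks. The 1 region of the window that parental cells also listed, chr8:21541297-21541960, had scores of 21.6 and 19.2 in resistant cells and 5.61 and 7.63 in parental cells.

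At AQP1, peaks covered 1844 and 1676 bases in resistant 451Lu libraries, against 983 and 644 in parental ones, again with no overlap. The main gain, chr7:30954138-30954825, had scores of 11.9 and 21.7 in resistant cells, above 45.7% and 68.1% of the peaks in these lists, and no call in parental cells. The other gain, chr7:30939740-30940023, had scores of 4.29 and 3.98, above 5.50% and 4.83% of the peaks, so it lay near the bottom of both lists. With lists of equal length the AQP1 window had 1 gain. In resistant cells 3 more regions of the window were each called in 1 library and in no parental library.

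At SOX2, peaks covered 1486 and 1369 bases in resistant libraries and 1003 and 1026 in parental ones, with no overlap. The gain at chr3:181403966-181404271 had scores of 7.88 and 9.69 in resistant cells and was listed in none of the other 18 libraries. The gain at chr3:181419775-181420249 had scores of 8.25 and 6.19, and was listed outside the resistant cells in 1 shp150_AP1 and 1 vector_NT library and in all 4 WM983B libraries. The 2 other regions of the window, chr3:181418252-181418772 and chr3:181428960-181429939, were constant.

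At NGFR 3 of 5 regions were constant, with no gain or loss. The peaks there covered 1960 and 1833 bases in resistant and 1373 and 1531 in parental libraries, with no overlap. At SOX9 they covered 945 and 450 bases in resistant and 588 and 626 in parental libraries, so the groups overlapped. At POU3F2 they covered 3302 and 3479 bases in resistant and 3448 and 3886 in parental libraries, and all 4 regions were constant. Per 1000000 listed bases, POU3F2 peaks took 69.3 and 69.1 bases in resistant libraries and 75.6 and 84.0 in parental ones, the only window of the 6 with both resistant 451Lu libraries below both parental ones on that scale.

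**Figure D2:**
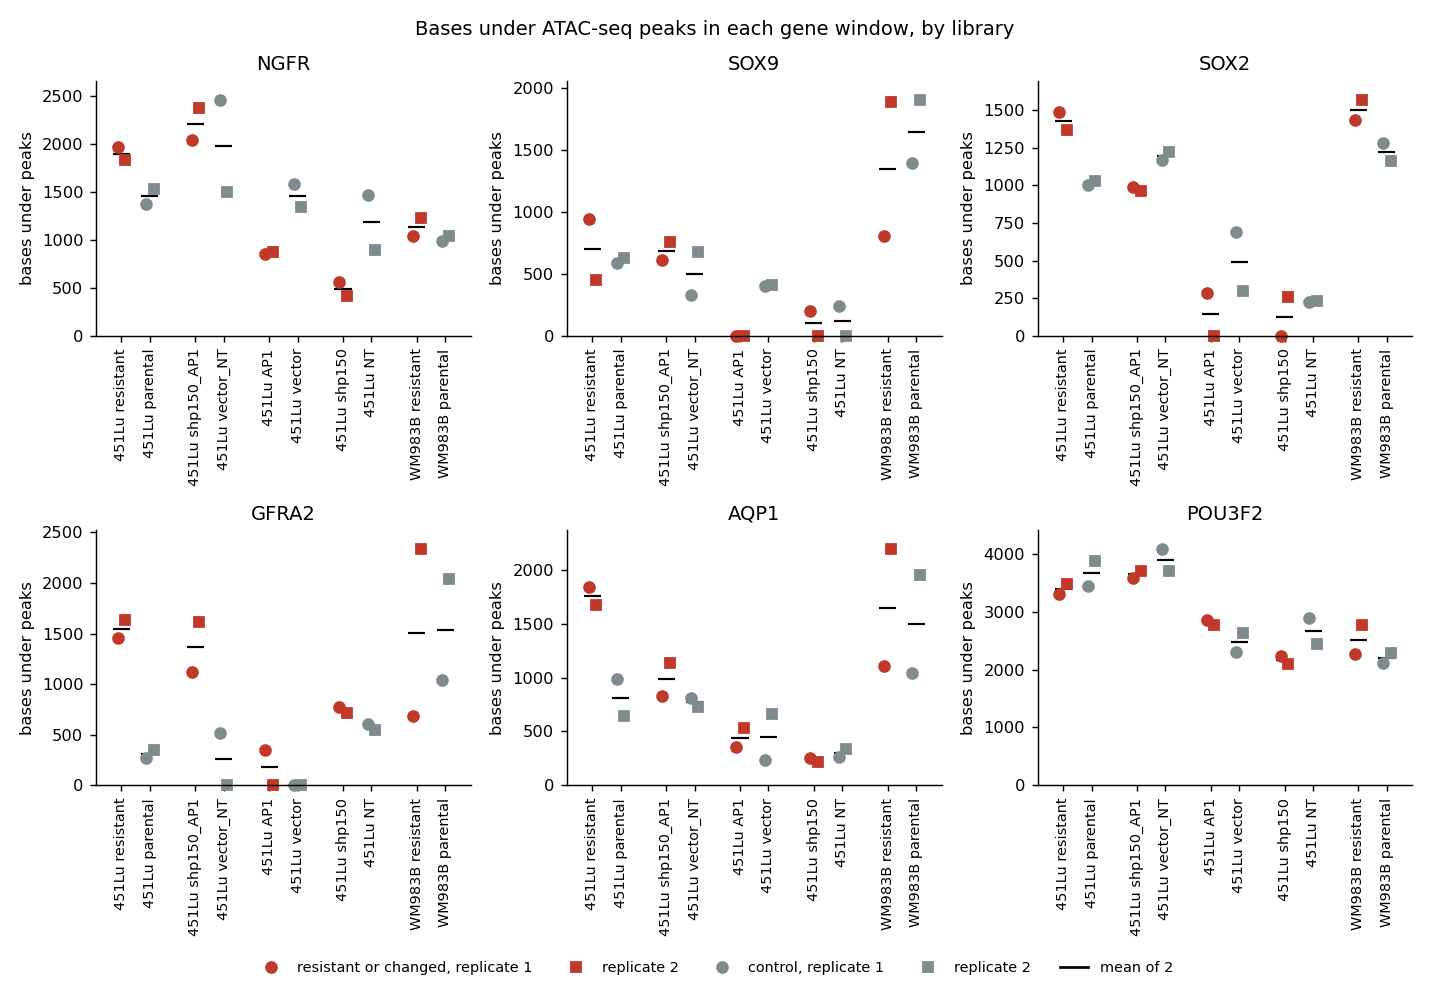
Bases under ATAC-seq peaks in each of the 6 windows, for each library (circles replicate 1, squares replicate 2, short lines the mean of 2), with each resistant or changed group left of its control. At GFRA2 the resistant 451Lu libraries lie at 1454 and 1635 bases, against 266 and 346 in parental cells, and in WM983B the libraries separate by replicate number.

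The same 7 gains were looked up in the other groups. Both resistant WM983B libraries called 4 of them, against 41.5% of all 11191 gains, and both parental WM983B libraries called 5, against 41.1%. In 451Lu, both shp150_AP1 libraries called 2, chr8:21614364-21614798 and chr7:30954138-30954825, against 26% of all gains. Both shp150 libraries called 1, the GFRA2 region chr8:21614364-21614798, against 2.57%, and NT replicate 1, a control, also listed that region, at a score of 6.35. No gain was called in both AP1 libraries, against 1.26%, or in both vector_NT libraries, against 5.08%. In 451Lu, 4 of the 7 were listed in no group but the resistant cells. None overlapped an H3K27ac peak of resistant 451Lu cells, against 5.64% of all gains.

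In 451Lu cells with the shRNA and the AP-1 subunits together, 3 of 25 regions of the windows were gained and none was lost: 1 each at GFRA2, AQP1 and SOX9. That is 12%, against 5.19% gained among all regions, with 3.26% lost. Another 9 were constant, 36% against 56.5% of all regions. At GFRA2, chr8:21614364-21614798 had scores of 8.95 and 7.63 in shp150_AP1 cells and no call in vector_NT cells. At AQP1, chr7:30954138-30954825 had scores of 8.55 and 11 in shp150_AP1 cells and no call in vector_NT cells. The SOX9 gain, chr17:70147678-70148292, had scores of 5.20 and 4.50 and no call in vector_NT cells. The same region was also listed in 1 resistant and 1 parental 451Lu library and in shp150 replicate 1. Vector replicate 2, a control, listed it at 8.96, above both shp150_AP1 scores, and all 4 WM983B libraries listed it. The gain was absent with lists of equal length. The gains were 6 without shp150_AP1 replicate 1 and 5 without vector_NT replicate 1. The losses were 1 without any of the 4 libraries in turn.

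Peaks in the GFRA2 window covered 1124 and 1613 bases in shp150_AP1 libraries, against 519 and 0 in vector_NT ones. At AQP1 they covered 833 and 1131 bases in shp150_AP1, against 809 and 729 in vector_NT libraries, so the groups did not overlap, though the lower shp150_AP1 value lay close to the higher vector_NT one. At SOX2 they covered 985 and 963 bases in shp150_AP1, against 1168 and 1223 in vector_NT libraries, both below. At NGFR they covered 2036 and 2366 bases in shp150_AP1, against 2455 and 1502 in vector_NT libraries, and the groups overlapped, as they did at SOX9 and POU3F2.

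The single changes gave no gain in these windows and 1 loss each. The lists of the AP1, vector, shp150 and NT libraries were shorter than those of shp150_AP1 and vector_NT. They held 42898 to 56824 peaks, against 79670 to 88478. The part of list length was not tested, so the counts of single and combined changes cannot be set against each other. Over-expressed AP-1 alone had 1 loss among 16 regions, against 2.86% lost and 1.6% gained among all regions, and 5 constant ones, or 31.2% against 55.1%. It was the SOX9 region chr17:70098422-70098916, with no call in AP1 cells and scores of 7.14 and 4.91 in vector cells. This region was called in 11 of the 16 libraries of 451Lu and in all 4 of WM983B. At NGFR the AP1 libraries covered 851 and 872 bases, against 1578 and 1336 in vector libraries. At SOX2 they covered 284 and 0, against 689 and 295 in vector libraries. At SOX9 they covered 0 and 0, against 400 and 406 in vector libraries, and at POU3F2 2861 and 2773, against 2309 and 2643. The AP1 losses were 2 or 3, and the gains 0 to 2, with any 1 of the 4 libraries left out.

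The shRNA alone had 1 loss among 15 regions, against 7.51% lost and 0.747% gained among all regions. It was the NGFR region chr17:47573620-47574194, with no call in shp150 cells and scores of 5.76 and 3.80 in NT cells, and it was constant between resistant and parental and between shp150_AP1 and vector_NT cells. At NGFR the shp150 libraries covered 558 and 413 bases, against 1469 and 894 in NT libraries, and both lay below. At GFRA2 they covered 775 and 710 bases, against 608 and 545 in NT libraries, and both lay above. At AQP1 they covered 249 and 218 bases, against 264 and 336 in NT libraries, and both lay below. At POU3F2 they covered 2241 and 2104 bases, against 2897 and 2436 in NT libraries, and both lay below. The shp150 lists were shorter, with 43913 and 42898 peaks against 55609 and 53419 in NT libraries. With lists of equal length the NGFR loss was not made and 1 GFRA2 region was gained. The losses were 5 without NT replicate 2 and 2 without shp150 replicate 2, and 1 region was gained without shp150 replicate 2 or without NT replicate 1.

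In WM983B no region of the windows was gained in resistant cells and 1 of 64 was lost, against 1.47% and 1.22% of all regions. The loss, chr6:99260200-99260396 at POU3F2, was not called in resistant cells and had scores of 2.17 and 3.26 in parental cells. Of the others 22 were constant, or 34.4% against 38% of all regions. Within replicate 1, 5 regions were listed in resistant cells alone and 11 in parental cells alone, and within replicate 2 these were 11 and 8. By number, 9 regions were in both replicate 2 libraries and neither replicate 1 library, and 1 was the reverse. Peaks in the 6 windows covered 7.33 and 12 kb in resistant and 7.85 and 10.4 kb in parental libraries, the higher value being replicate 2 in both groups. Leaving out 1 library moved the gains to as many as 10 (without resistant replicate 1) and the losses to as many as 8 (without parental replicate 1). With resistant replicate 2 left out there were 3 gains and 5 losses, and with parental replicate 2 left out 2 gains and 6 losses.

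The cell lines differed at 3 regions that all 4 WM983B libraries called and no 451Lu library did, at SOX9, SOX2 and GFRA2. At SOX9, chr17:70116905-70117359 had scores of 10.8 and 29.7 in resistant and 4.72 and 13.2 in parental WM983B libraries. At SOX2, chr3:181430357-181431077 had scores of 11.8 and 11.2 in resistant and 11.1 and 6.77 in parental WM983B libraries. At GFRA2, chr8:21555179-21555403 had scores of 3.79 and 9.59 in resistant and 7.93 and 4.98 in parental WM983B libraries. That is 4.55% of the 66 regions, against 4.7% of all regions, and no region of the windows was the reverse, against 0.234%. At AQP1, chr7:30954138-30954825, gained in resistant 451Lu cells, was among the higher-scoring peaks of every WM983B list: 23.9 and 39.1 in resistant cells, above 93.5% and 97.9% of the peaks, and 15.1 and 36 in parental cells, above 81.5% and 98.7%.

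**Figure D3:**
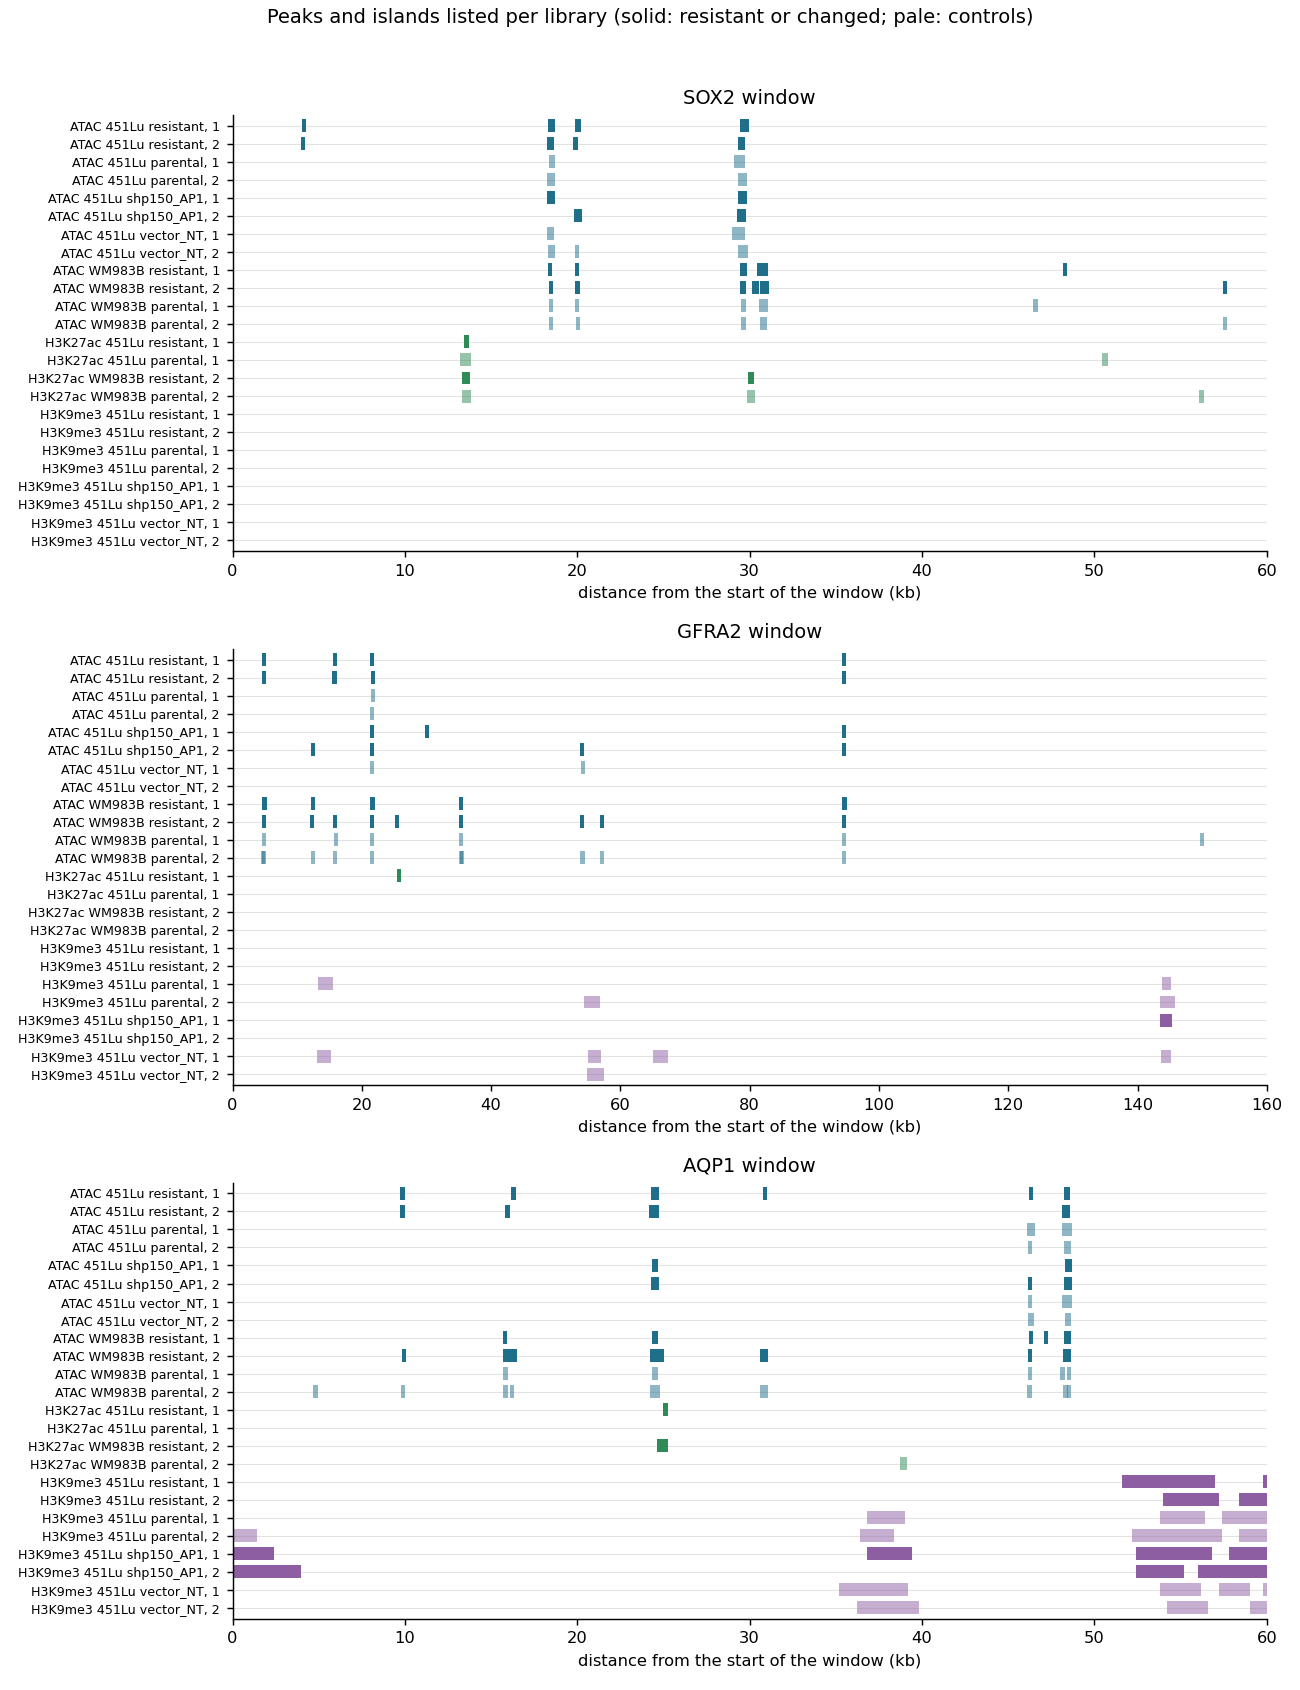
Listed ATAC-seq peaks (blue), H3K27ac peaks (green) and H3K9me3 islands (purple) per library along the SOX2, GFRA2 and AQP1 windows, in kb from the window's start; the narrowest features are drawn wider than to scale so that they can be seen. The GFRA2 ATAC-seq peak near 95 kb is listed in both resistant and both shp150_AP1 451Lu libraries and in all WM983B libraries, and in no parental or vector_NT 451Lu library; both shp150 libraries and NT replicate 1, which are not drawn, also list it; the SOX2 window holds no island.

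With 1 H3K27ac peak list used in each group, no difference in this mark was checked against replicates. In 451Lu, 5 of 10 regions were listed in resistant cells alone and 1 in parental cells alone, against 50.3% and 19.9% of all regions, and 4 in both, or 40% against 29.9%. The resistant list was the longer, with 51710 peaks against 32304. The share in the windows is near that of all regions, and with lists of equal length 2 of the 10 regions were in resistant cells alone. The 5 were chr17:47572543-47572887 at NGFR (score 3.30), chr8:21545662-21545957 at GFRA2 (5.07), chr17:70117894-70118292 at SOX9 (8.25), chr7:30954977-30955255 at AQP1 (3.98) and chr6:99254542-99254885 at POU3F2 (7.04). With equal lists the 2 regions lay in the SOX9 and POU3F2 windows. The AQP1 peak lay 215 bp from the gained ATAC-seq region as called in the same cells, which ended at chr7:30954761.

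In WM983B, 6 of 14 H3K27ac regions were in resistant cells alone and 2 in parental cells alone, against 21.2% and 43.8% of all regions, and 6 in both, or 42.9% against 35%. Here the resistant list was the shorter, with 36022 peaks against 50336. Of the 6, 4 lay in the SOX9 window, at scores of 8.95, 8.38, 8.76 and 7.51, and parental WM983B cells had no H3K27ac peak there. Parental 451Lu cells had none there either. The other 2 were chr17:47572983-47573265 at NGFR (2.39) and chr7:30954606-30955250 at AQP1 (5.45), and the AQP1 peak overlapped the ATAC-seq region named above. The SOX9 peak chr17:70117821-70118357 of WM983B and the resistant peak of 451Lu overlapped each other.

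At SOX2, H3K27ac peaks covered fewer bases in resistant than in parental cells of both lines. The region chr3:181413178-181413840 was in all 4 lists, at 12.6 in resistant and 16.1 in parental 451Lu cells and at 13.4 in resistant and 25.1 in parental WM983B cells. Peaks of the window covered 342 bases in resistant and 942 in parental 451Lu cells, and 792 in resistant and 1265 in parental WM983B cells. Neither line had H3K27ac only in resistant cells there. At POU3F2, 3 of 4 regions in 451Lu and 4 of 4 in WM983B were in both resistant and parental cells. At GFRA2 the 451Lu resistant peak was the only H3K27ac peak in the 4 lists.

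**Figure D4:**
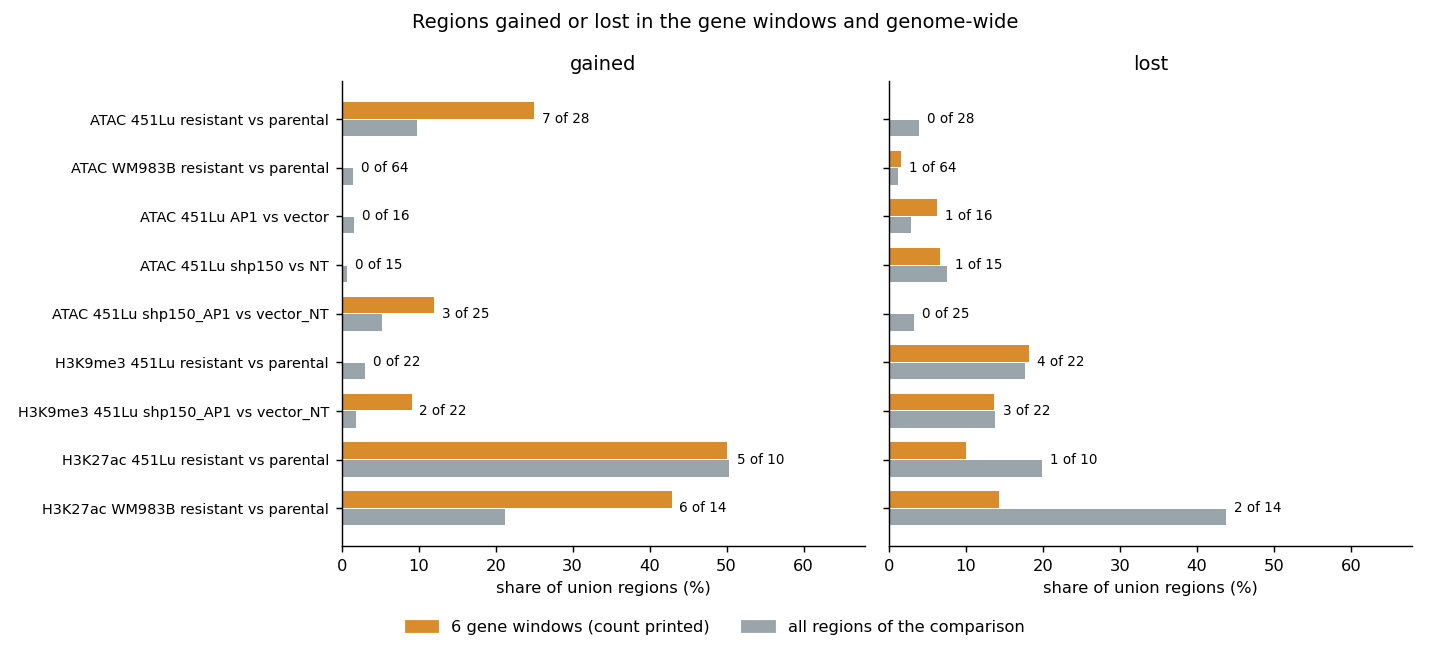
Share of union regions gained (left) or lost (right) in each comparison, for the 6 windows (orange, with the count printed) and for all regions of the comparison (grey); for H3K27ac, gained and lost mean in the 1 resistant or the 1 parental list alone. The ATAC-seq gains of resistant 451Lu cells stand at 25% against 9.79%, and H3K9me3 losses at 18.2% against 17.7%.

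H3K9me3 islands covered the most bases at SOX9 in each of the 8 libraries, and the SOX2 window had none. Among 22 regions in resistant against parental 451Lu cells, 4 were lost and none gained, 18.2% lost against 17.7% of all regions and 3.06% gained among all. This share is near that of all regions, and the resistant lists were shorter, with 40010 and 50181 islands against 61888 and 70879. With lists of equal length, the highest folds of ChIP over input up to the shortest list, 5 regions were gained and 1 lost, so the direction of the counts depends on that choice. With either resistant library left out, 1 region was gained. The lists hold islands that did not pass a false discovery rate of 0.01, 15% and 13.6% of them in resistant and 6.74% and 6.80% in parental cells. The ChIP reads in the listed islands numbered 11.5 to 31.1 M per library, where M stands for 1000000.

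By length, islands covered 71.8 and 64.0 kb of the SOX9 window in resistant cells, against 50.2 and 43.2 kb in parental cells, with both resistant libraries above. These lengths hold islands of any false discovery rate, and at a rate of at most 0.01 they became 62 and 45.2 kb in resistant and 47 and 41.4 kb in parental cells, so the groups overlapped. At POU3F2 they covered 6.2 and 3.2 kb in resistant cells, against 13.2 and 17 kb in parental cells, with both resistant libraries below. At GFRA2 no island was listed in resistant cells, and parental libraries had 3.8 and 4.8 kb. At AQP1 the islands covered 5.6 and 4.8 kb in resistant and 7.4 and 10.2 kb in parental cells, and at NGFR 9.8 and 9.8 kb in resistant and 7.6 and 10.4 kb in parental cells. At a rate of at most 0.01 NGFR had 2.4 and 6.8 kb in resistant and 7.6 and 10.4 kb in parental cells, both resistant libraries below, while POU3F2, GFRA2 and AQP1 kept the lengths given. The losses were chr6:99250601-99255400 and chr6:99271801-99273800 at POU3F2, chr8:21663401-21665800 at GFRA2 and chr7:30966401-30969000 at AQP1. None of the 4 overlapped a gained ATAC-seq region.

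In shp150_AP1 against vector_NT cells, 2 of 22 H3K9me3 regions were gained and 3 lost, 9.09% and 13.6%, against 1.87% and 13.8% of all regions. The share lost is near that of all regions. The shp150_AP1 lists were shorter, with 63295 and 48704 islands against 76857 and 67147 in vector_NT cells. Their islands held 11.5 and 14.9 M ChIP reads, against 31.1 and 21.8 M. The part of list length and reads in the calls and lengths was not tested. At POU3F2 islands covered 0 and 6 kb in shp150_AP1, against 9.8 and 12.6 kb in vector_NT cells, with 2 losses, chr6:99252401-99255000 and chr6:99271201-99274600. At AQP1 they covered 11.6 and 10.8 kb in shp150_AP1, against 8.4 and 7.0 kb in vector_NT cells, with 1 gain at chr7:30929801-30934000. At SOX9 they covered 46000 and 60000 bases in shp150_AP1, against 50000 and 38000 in vector_NT cells, with 1 gain at chr17:70109201-70115200. The folds of ChIP over input of that gain were 1.36 and 1.55. The labels name an input library for shp150_AP1 replicate 2 and none for replicate 1, so the input behind the replicate 1 folds is unknown. At GFRA2 islands covered 2 and 0 kb in shp150_AP1, against 8.2 and 2.6 kb in vector_NT cells, with 1 loss at chr8:21574801-21577400. The gains were 4 without vector_NT replicate 1, and the losses 5 without shp150_AP1 replicate 1 or without vector_NT replicate 2.

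**Figure D5:**
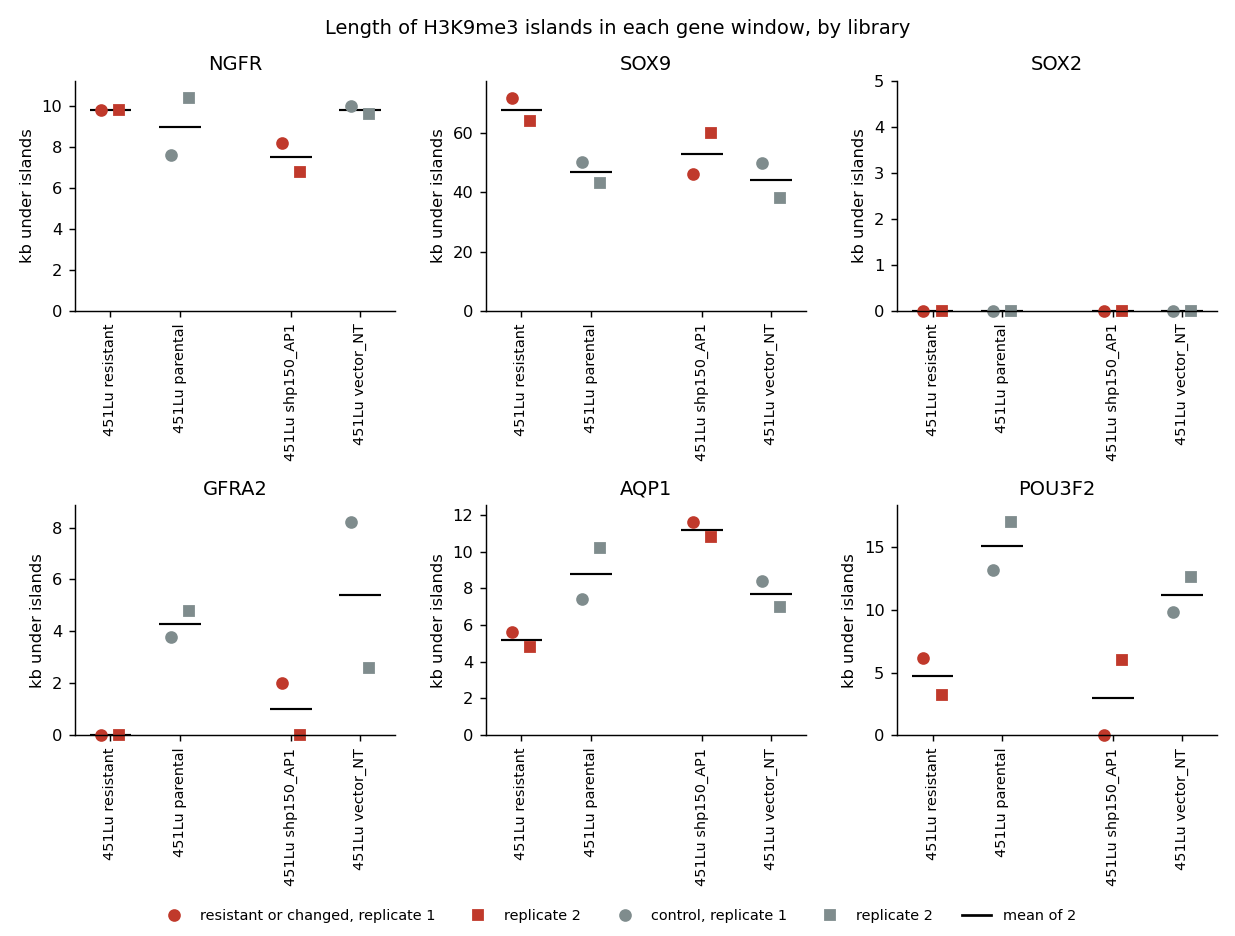
Length under H3K9me3 islands (kb) in each window, for each 451Lu library (circles replicate 1, squares replicate 2, short lines the mean of 2), with resistant left of parental and shp150_AP1 left of vector_NT cells. Resistant libraries lie at 71.8 and 64.0 kb at SOX9, above both parental ones (not so at a false discovery rate of at most 0.01), and at 6.2 and 3.2 kb at POU3F2, below both; SOX2 is at 0 in all 8.

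The authors' deposited table of intervals in 451Lu, named RRR and not spelled out in the sources used here, met 3 of the 6 windows, and it does not say which group a positive fold change favours. In the authors' deposited table, chr17:70020000-70120000 at SOX9 had a log2 fold change of 6.28 (SE 0.48, adjusted p 2.08e-37), the 27th of 1848 by size whatever the sign. In the authors' deposited table, chr7:30820000-31020000 at AQP1 had 4.60 on the log2 scale (SE 0.32, adjusted p 9.2e-45), the 103rd by size. In the authors' deposited table, chr17:47500000-47580000 at NGFR had -0.73 on the log2 scale (SE 0.32, adjusted p 0.0308). No interval met the windows of GFRA2, SOX2 or POU3F2, the nearest lying 180, 2080 and 320 kb away. Both AQP1 gains of resistant cells lay in the AQP1 interval, and no ATAC-seq gain lay in the SOX9 interval.

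Among 14 further genes of the neural crest and of neurotrophin and GDNF-family signalling, the same calls were counted. In resistant 451Lu cells 5 of 60 ATAC-seq regions were gained, in 4 genes, and 4 lost, in 4 genes, which is 8.33% and 6.67%, against 9.79% and 3.96% of all regions. RXRG, a retinoid receptor that also marks neural crest stem cell-like melanoma cells, had 2 gains and 1 loss among 8 regions. GDNF, a ligand, SOX8, a transcription factor, and SORT1, a sorting receptor, had 1 gain each. GFRA1, the co-receptor for GDNF, L1CAM, a cell adhesion molecule, and NRTN, which encodes neurturin, the ligand of GFRA2, had 1 loss each. In shp150_AP1 cells 3 of 66 were gained and 2 lost, 4.55% and 3.03% against 5.19% and 3.26% of all regions, with gains at GDNF, GFRA1 and NRTN and losses at RET, the kinase partner of GFRA2, and RXRG. NRTN thus had a gain in shp150_AP1 and a loss in resistant cells, each among 2 regions. In WM983B 3 of 140 were gained and none lost, against 1.47% and 1.22% of all regions, at NES, BDNF and GFRA1. AP1 alone gave no gain and 1 loss of 49, at TFAP2B, against 1.6% and 2.86%, and shp150 alone neither a gain nor a loss among 42, against 0.747% and 7.51%.

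For H3K9me3, 4 of 14 regions of these genes were lost in resistant cells, 28.6% against 17.7% of all regions, and none gained, against 3.06%. In shp150_AP1 cells 4 of 17 were lost, 23.5% against 13.8%, and none gained, against 1.87%. In both comparisons the losses lay at MSX1, SORT1 and GFRA1. For H3K27ac, 21 of 48 regions were in resistant 451Lu cells alone and 9 in parental cells alone, against 50.3% and 19.9% of all regions. The genes with most such regions were SORT1, with 5 in resistant and 1 in parental cells alone, L1CAM with 5 and 0, FOXD3 with 2 and 3, and BDNF and RET with 3 and 0 each. In WM983B 12 of 37 were in resistant cells alone and 11 in parental cells alone, against 21.2% and 43.8%. GFRA1 had 4 in resistant and 0 in parental cells alone, L1CAM 3 and 1, SOX8 1 and 2, and POU3F1 and SORT1 0 and 3 each.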

How the data were processed

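Tools named in the submitters' processing notes, with neither role nor order, are deepTools, STAR 2.5.3, SICER, MACS2, Picard and Bowtie2, and the build is hg19; trimming, handling of duplicates and any Tn5 shift are not stated there. ATAC-seq and H3K27ac files hold, as deposited by the authors, the peaks of a library and a score per peak, without depth. H3K9me3 files hold, as deposited by the authors, the islands of a library with ChIP and input read counts, a p-value, the ratio (fold) of ChIP to input, and an adjusted p-value (false discovery rate). The authors' deposited interval table holds a mean signal, log2 fold changes with standard errors, a test score and p-values, under column names that DESeq2 writes; its assay, groups and direction are not stated. Its intervals start and end on a grid of 20 kb.

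Entries on chromosomes 1 to 22 and X were merged into union regions per comparison, or over all 20 ATAC-seq lists where coordinates are given for ATAC-seq, and calls were made at an overlap of 1 bp, with Python 3.11.15, pandas 2.3.3 and NumPy 2.4.6. Calling was tested on simulated lists. Groups came from the labels. Named regions were those gained or lost, those called in all 20 ATAC-seq libraries, and those in every library of 1 line and none of the other; the further genes named were those with changed regions, and 1 gene of that list is not reported here. The 6 genes, the windows and the lists of further and marker genes were chosen with earlier results of these data known. The windows are rounded and were set by hand; no hg19 annotation was used. Alternatives were coverage of 50% of a region, lists of equal length, a score of at least 5, a false discovery rate of at most 0.01 (for island lengths, chosen after seeing the data), the union of all ATAC-seq lists, and leaving out each library. Of 47 samples, 15 (RNA, input and H3K27ac libraries) were not analysed here by themselves. No read counts over shared regions were formed, since islands were called separately in each library.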

Additional observations from a re-analysis of the deposited data

Results flagged for a closer look

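At POU3F2 the share of listed ATAC-seq bases moved in opposite directions in the cell lines. Resistant minus parental 451Lu cells gave -11 bases per 1000000 listed bases (69.3 and 69.1 in resistant, 75.6 and 84.0 in parental libraries). Resistant minus parental WM983B cells gave 4.9 (75.7 and 76.7 in resistant, 72.2 and 70.5 in parental libraries). In 451Lu both resistant libraries were below both parental ones, and in WM983B both were above; the difference between the lines was not tested. In plain covered bases the groups overlapped in both lines. WM983B lists also differed by replicate number, whose part in this was not tested.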

How the results depend on the processing

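No paired analysis was possible because the calls come from no test, so no fit with a replicate block could be made; calls within a replicate number were counted instead. In 451Lu they gave 11 ATAC-seq regions in resistant and 0 in parental cells alone for replicate 1, and 9 and 2 for replicate 2. Under the settings other than leaving out a library, the 7 ATAC-seq gains in resistant 451Lu cells numbered 6 to 7 and the 3 in shp150_AP1 cells 2 to 4. With lists of equal length, H3K9me3 in resistant cells gave 5 gains and 1 loss, shp150 gave 1 ATAC-seq gain and 0 losses, H3K27ac gave 2 regions in resistant 451Lu cells alone and 0 in parental WM983B cells alone. With 50% of a region covered, WM983B ATAC-seq gave 1 gain and 0 losses, AP1 gave 2 losses and H3K9me3 in resistant cells 1 gain. With a score of at least 5, the ATAC-seq losses of WM983B and of AP1 and the parental-only H3K27ac regions of WM983B were 0. With a false discovery rate of at most 0.01, H3K9me3 in resistant cells gave 1 gain, and the mean island length, an alternative chosen after seeing the data, was -4.4 kb at NGFR, resistant minus parental, against 0.8 kb with all islands. Leaving out 1 library at a time gave 7 to 11 ATAC-seq gains and 0 to 1 losses in resistant 451Lu, 0 to 10 and 1 to 8 in WM983B, 0 to 2 and 2 to 3 in AP1, 0 to 1 and 1 to 5 in shp150, and 3 to 6 and 1 in shp150_AP1 cells. For H3K9me3 it gave 0 to 1 gains and 4 to 6 losses in resistant and 2 to 4 and 3 to 5 in shp150_AP1 cells. The causes were not tested. Of 120 such counts over the 6 windows together, 76 stayed within 1.5 times. Depth is unknown for peak lists, so an unlisted region may lie below a list's threshold, and small counts move by large ratios.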
